A study of Mus musculus with 8 samples.

Results

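The CLK and SRPK kinases and the Tra2 splicing factors were followed in mouse embryonic stem cells with and without the arginine methyltransferase gene Prmt5. The set comprised the 8 genes Clk1, Clk2, Clk3, Clk4, Srpk1, Srpk2, Tra2a and Tra2b, chosen by gene symbol from the 38991 gene identifiers of the expression tables, and all 8 were found and passed the filter on low values. RNA was sequenced from 4 iPHet libraries, the control, and 4 iPKO libraries, the Prmt5 knockout. The cells were male C57BL/6 lines derived from blastocysts on feeder fibroblasts and later held in 2i ground state medium. Cells of both genotypes, controls included, had received 4-hydroxytamoxifen at 2 µM over 48 hours, which induces the Prmt5 deletion, before a change of medium. The labels name 1 line for each genotype for most experiments (PC1 for iPHet and PC4 for iPKO), so a difference between genotypes cannot be told apart from a difference between lines. The labels do not state whether the 4 libraries per genotype are separate cultures, and the p-values then reflect only how far these libraries spread, possibly for technical reasons. They also do not state the Prmt5 alleles behind the names iPHet and iPKO.

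SR proteins bind pre-mRNA and recruit the splicing machinery, and their tails of arginine and serine repeats (RS domains) must be phosphorylated and dephosphorylated for splicing to proceed. SRPK kinases phosphorylate SR proteins mainly in the cytoplasm, which lets them be imported into the nucleus, and CLK kinases add further phosphates in the nucleus and release SR proteins from nuclear speckles. Tra2a and Tra2b are RS-domain RNA-binding proteins that promote the inclusion of exons. CLK and Tra2 transcripts are known to regulate themselves by splicing, through introns that are kept in the nucleus and through exon choices that lead to decay of the transcript. Prmt5 methylates Sm proteins, which form the core of the spliceosomal particles.

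The exon at the centre of CLK self-regulation is shown because its skipping is annotated in all 4 Clk genes. In the principal transcript of each Clk gene in GENCODE release vM21 (mm10), which has 13 exons, exon 4 is followed by exon 5. Of the annotated transcripts that skip exon 4, some are classed as targets of nonsense-mediated decay. These were 2 of 3 in Clk1 and in Clk4, and 1 of 1 in Clk2 and in Clk3. Exon 4 was 91 bases in Clk1 (chr1:58420121-58420211, minus strand), 85 in Clk2 (chr3:89169618-89169702, plus strand), 97 in Clk3 (chr9:57758627-57758723, minus strand) and 91 in Clk4 (chr11:51273078-51273168, plus strand). Each of these lengths leaves a remainder of 1 when divided by 3, so skipping shifts the reading frame. Exon 4 is printed in capitals, with 20 bases of intron on either side in lower case, read from annotated transcripts that keep these introns.
Clk1: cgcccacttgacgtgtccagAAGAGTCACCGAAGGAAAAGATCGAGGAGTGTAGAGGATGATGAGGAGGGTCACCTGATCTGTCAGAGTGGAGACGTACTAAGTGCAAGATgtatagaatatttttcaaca
Clk2: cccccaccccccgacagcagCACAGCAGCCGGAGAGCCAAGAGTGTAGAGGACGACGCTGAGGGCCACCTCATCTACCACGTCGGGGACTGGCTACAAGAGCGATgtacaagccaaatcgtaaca
Clk3: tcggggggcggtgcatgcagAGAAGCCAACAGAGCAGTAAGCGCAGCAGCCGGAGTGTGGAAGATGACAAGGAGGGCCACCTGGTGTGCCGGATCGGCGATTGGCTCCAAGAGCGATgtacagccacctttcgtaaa
Clk4: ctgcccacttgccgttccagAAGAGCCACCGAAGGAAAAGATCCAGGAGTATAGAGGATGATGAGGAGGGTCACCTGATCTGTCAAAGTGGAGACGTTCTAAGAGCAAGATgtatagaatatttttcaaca
Bases were compared position by position with no gaps. Clk1 and Clk4 were identical at 85 of 91 exon bases (93.4%), at 20 of 20 bases after the exon and at 10 of 20 before it. Before the exon both genes hold the run gcccacttg at positions 1 base apart, which the count does not match up. The 10 of 20 therefore understates how alike these bases are. Clk1 matched Clk2 and Clk3 at 10 of 20 bases after the exon. In all 4 genes exon 4 ended in AT before the splice donor. Over the principal transcripts of 11171 tested protein-coding genes, 2.37% of 119326 exon ends next to a donor were AT and 56.5% were AG. Of the 92 such ends in the 8 genes, 6 were AT, a count that takes in the exon 4 ends of the 4 Clk genes and is not a separate result. The deposited values are per gene, so inclusion of exon 4 was not measured.

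Annotated alternative transcripts were common across the set. Each of the 8 genes had at least 1 retained-intron transcript and at least 1 decay-target transcript in the annotation, a combination found in 24.0% of 11176 tested protein-coding genes. Clk1 and Clk4 had 7 retained-intron transcripts each, a number reached by 2.63% of those genes. Srpk1 had 6, Clk2 and Clk3 4 each, Srpk2 and Tra2b 3 each and Tra2a 2. Decay-target transcripts numbered 3 in Clk4 and in Tra2b, 2 in Clk1 and 1 in each of the other genes. These shares describe the annotation and were not tested.

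The labels and the libraries were examined first. Prmt5 was between 52.8 and 72.2 FPKM (fragments per kilobase of transcript, scaled to the library's fragments) in the iPHet libraries and between 11.8 and 15.0 FPKM in the iPKO libraries. The summed FPKM per library was 411827 to 458856, and the absolute depth is unknown because the tables hold no counts. All 8 stem cell markers were tested, and 1, Sox2, fell. Of 7 fibroblast feeder markers, Postn and Lum were listed at 0 in every library, and the list summed to 221 to 250 FPKM in iPHet and 147 to 243 FPKM in iPKO, nearly all of it Fn1. Of 5 endoderm markers the sums were 4.11 to 4.83 and 2.67 to 4.06 FPKM, and of 5 trophoblast markers 24.7 to 109 and 26.3 to 118 FPKM. Nearly all of the trophoblast sum was Krt8 (means of 47.0 and 51.0 FPKM) and Krt18 (18.5 and 19.5 FPKM). Cdx2, Gata3 and Elf5 were under the filter on low values. The part of these markers in the results below was not tested. In bulk RNA, fewer cells of a type and less RNA per cell cannot be told apart. Libraries 1 and 3 of a genotype differed by a root mean square of 0.16 to 0.18 on the log2(FPKM + 1) scale over well expressed protein-coding genes, as did libraries 2 and 4, while an odd-numbered and an even-numbered library of 1 genotype differed by 0.38 to 0.42. Values are therefore given for odd-numbered and even-numbered libraries as well.

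All 8 genes were expressed in both genotypes, in the same order of mean FPKM, a level per transcript length. Tra2b was highest, followed by Clk1, Tra2a, Srpk1, Clk2, Clk4, Clk3 and Srpk2. In iPHet the library ranges of Tra2b and Clk1, and of Clk1 and Tra2a, overlapped. In iPKO those of Tra2b and Clk1, and of Clk3 and Srpk2, overlapped, and the other neighbours in the order were separate. In iPHet, Tra2b and Clk1 stood at the 94.6th and 93.8th percentile of tested genes and Srpk2 at the 49.1st.

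**Figure D1:**
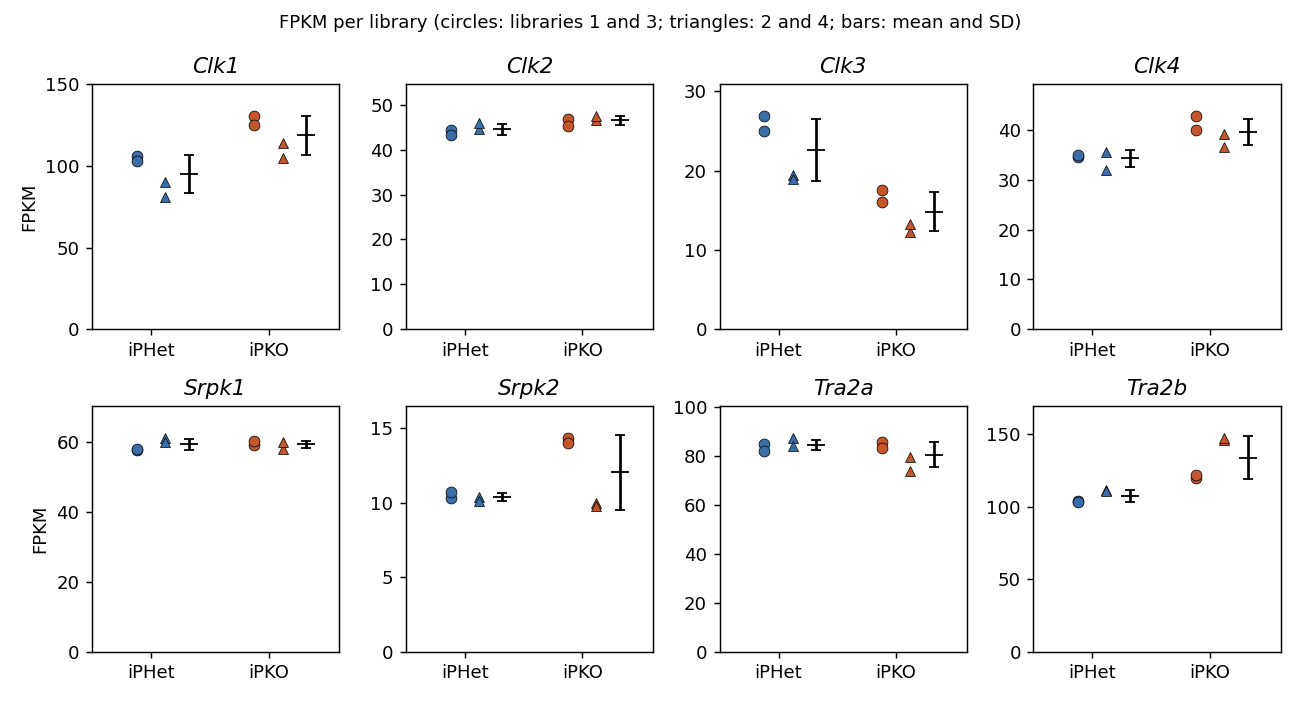
FPKM of the 8 genes in each library, 1 panel per gene with its own axis from 0. Circles are libraries 1 and 3, triangles libraries 2 and 4, and black bars the mean and SD (n = 4 per genotype). The iPKO points of Clk3 all lie below its iPHet points, those of Clk4 and Tra2b all lie above, and Srpk2 was higher in iPKO libraries 1 and 3 but not in 2 and 4.

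Of the 8 genes, Clk3 fell and Tra2b rose in iPKO, and the other 6 were not called. A gene is called where the limma adjusted p, taken over all 12462 tested genes, is under 0.05. Over all tested genes 15.8% were called, 6.3% higher and 9.53% lower, against 2 of the 8, and nothing particular to the set is read from these counts. With the libraries set to equal medians the 785 higher and 1188 lower calls over all genes became 954 and 823. The median log2 difference was 0.12 for the 8 genes and -0.04 for all tested genes. Groups did not overlap for 3 of the 8 genes, against 25.1% of all tested genes.

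The CLK kinases are nuclear dual-specificity kinases, and their 4 genes did not move together. Clk3 was 26.9, 19.5, 24.9 and 19.0 FPKM in iPHet libraries 1 to 4 and 17.5, 12.2, 16.1 and 13.3 FPKM in iPKO libraries 1 to 4. Every iPKO library was below every iPHet library, and within each genotype the odd-numbered libraries were above the even-numbered ones. The mean fell from 22.6 ± 3.95 to 14.8 ± 2.46 FPKM (SD, n = 4 each), which was 1.53-fold lower, with a log2 difference of -0.58 (SE 0.15, limma adjusted p = 0.0351). The difference was -0.60 for libraries 1 and 3 and -0.56 for libraries 2 and 4, and the two-sided exact permutation p was 0.0286, which is the smallest p possible with 4 libraries a group. Averaging library 1 with 3 and 2 with 4 ended the call (limma adjusted p = 0.563 with FPKM averaged and 0.549 with log2 values averaged, and 0.0856 and 0.0702 with an odd/even term over protein-coding genes), as did leaving out iPHet 1, iPHet 3, iPKO 2, iPKO 3 or iPKO 4 (0.0557 to 0.0859) and testing with no filter on low values (0.057). Clk3 (ENSMUSG00000032316) lies on chromosome 9 from 57750711 to 57765860 of mm10 and overlaps Edc3, a gene of the opposite strand. Of the 100-base windows of its protein-coding transcripts, 28.4% also occur in Edc3 transcripts. Since strand is not stated, reads there could be counted for either gene. Edc3 itself was at 14.7 ± 0.461 FPKM in the iPHet libraries and at 13.9 ± 0.490 FPKM in the iPKO libraries (SD, n = 4 each), with a limma adjusted p of 0.424.

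Clk1, which phosphorylates SR proteins in nuclear speckles, was 106, 90.3, 103 and 81.2 FPKM in iPHet libraries 1 to 4 and 131, 114, 125 and 105 FPKM in iPKO libraries 1 to 4. The ranges overlapped, since iPHet 1 was above iPKO 4, but within the odd-numbered and within the even-numbered libraries iPKO was above iPHet throughout. The means were 95.3 ± 11.6 and 119 ± 11.7 FPKM (SD, n = 4 each), a log2 difference of 0.32 (SE 0.11, limma adjusted p = 0.0815, exact permutation p = 0.0571). It was 0.29 for libraries 1 and 3 and 0.35 for libraries 2 and 4. Clk1 (ENSMUSG00000026034, chromosome 1 from 58410189 to 58424066) was called with the replicate number as a block (limma adjusted p = 0.00751), with a term for odd and even numbers (0.00313), with quantile normalization (0.0475) and with equal medians (0.0316), but not with paired libraries averaged (0.663 for FPKM and 0.665 for log2 values).

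Clk4, the closest relative of Clk1, was 34.5, 35.6, 35.0 and 31.9 FPKM in iPHet libraries 1 to 4 and 42.8, 39.1, 40.1 and 36.5 FPKM in iPKO libraries 1 to 4. All iPKO libraries were above all iPHet libraries, by a small margin between iPKO 4 and iPHet 2. The means were 34.3 ± 1.64 and 39.6 ± 2.60 FPKM (SD, n = 4 each), a log2 difference of 0.20 (SE 0.066, limma adjusted p = 0.0721, exact permutation p = 0.0286). As for Clk1, the call was made with the replicate block (0.0298), the odd/even term (0.0187), quantile normalization (0.0394) and equal medians (0.0412), and not with paired libraries averaged (limma adjusted p = 0.687 and 0.688). Clk4 (ENSMUSG00000020385) lies on chromosome 11 from 51261730 to 51281766. No 100-base window of the protein-coding transcripts of Clk1 or of Clk4 occurs in transcripts of another gene. Only exact matches were counted and exon 4 is 91 bases long, so this does not measure read sharing between the 2 exons. Over all its annotated exons, Clk4 shares 59 bases with Gm25082, a miscellaneous RNA gene of the same strand. Gm25082 was 3.77 ± 1.38 and 6.27 ± 3.13 FPKM in iPHet and iPKO (SD, n = 4 each, limma adjusted p = 0.345).

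Clk2 showed the smallest difference of the family, between 43.2 and 46.0 FPKM in iPHet and between 45.2 and 47.6 FPKM in iPKO. Its log2 difference of 0.06 had a 95% interval of -0.05 to 0.17 (limma adjusted p = 0.421). Clk2 (ENSMUSG00000068917) lies on chromosome 3 from 89164795 to 89176921.

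The share of each gene in total CLK expression was also described. Clk1 made up 45.6% to 50.1% of the summed FPKM of the 4 Clk genes in iPHet libraries and 51.8% to 55.3% in iPKO libraries. Clk3 made up 10.3% to 12.7% and 5.78% to 7.37%, and neither range overlapped. Clk4 held 16.3% to 18.8% in iPHet and 17.7% to 18.5% in iPKO, and Clk2 held 20.9% to 25.8% and 19.7% to 23.5%. The ratio of Clk1 to Clk3 was 3.95 to 4.63 in iPHet and 7.46 to 9.32 in iPKO. The summed Clk level was 178 to 212 FPKM in iPHet and 202 to 238 FPKM in iPKO, with overlap. These shares combine the values above and were not tested.

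**Figure D2:**
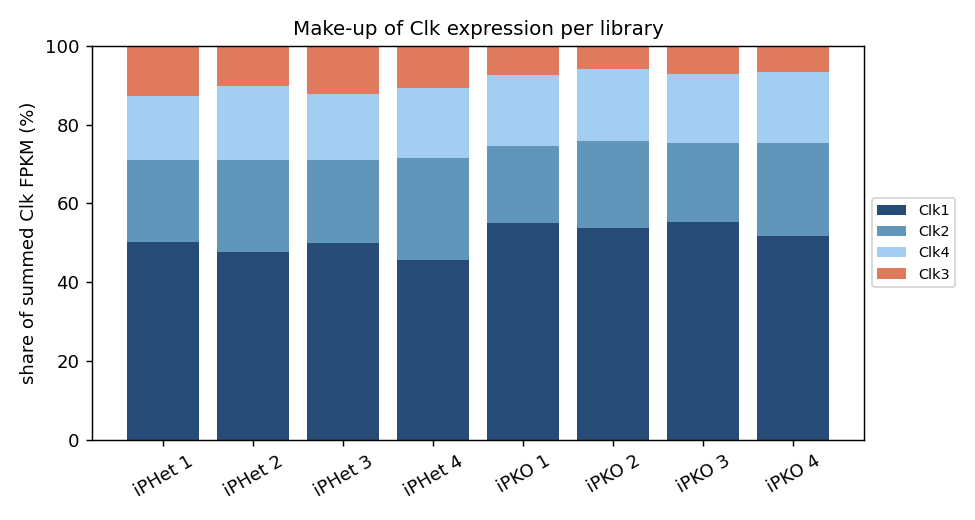
Share of each Clk gene in the summed FPKM of Clk1 to Clk4, in percent, as 1 stacked bar per library. The Clk3 part at the top of the bars was 10.3% to 12.7% in the 4 iPHet libraries and 5.78% to 7.37% in the 4 iPKO libraries.

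The SRPK kinases act upstream of the CLK kinases on SR proteins. Srpk1 was nearly level, at 57.9, 61.2, 58.2 and 60.2 FPKM in iPHet libraries 1 to 4 and 59.2, 58.2, 60.4 and 60.0 FPKM in iPKO libraries 1 to 4. The ranges lay on top of each other, and the 95% interval of the log2 difference was -0.11 to 0.11 (limma adjusted p = 0.977). Srpk1 (ENSMUSG00000004865) lies on chromosome 17 from 28587648 to 28622521.

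Srpk2 differed between odd-numbered and even-numbered libraries in iPKO, while its iPHet values lay close together. It was 10.3, 10.4, 10.7 and 10.1 FPKM in iPHet libraries 1 to 4. In iPKO it was 14.3 and 14.0 FPKM in libraries 1 and 3, and 10.01 and 9.74 FPKM in libraries 2 and 4. The iPKO libraries 1 and 3 were above all others, and iPKO 2 and 4 were the lowest of the 8. Over all libraries the log2 difference of 0.18 (SE 0.13) was not called (limma adjusted p = 0.396). It was 0.40 for libraries 1 and 3 and -0.05 for libraries 2 and 4. The change in even-numbered libraries minus that in odd-numbered ones was -0.45 (SE 0.058, limma interaction adjusted p = 0.00389). Such an interaction was called for 28.5% of all tested genes and for 2 of the 8, Srpk2 and Tra2b, so it is not particular to them. Its error comes from the close library pairs, and the labels do not say whether a pair is 1 culture. Odd-numbered libraries of the 2 genotypes were matched by number alone, as were even-numbered ones. Across genotypes, deviations from the genotype mean correlated at 0.077 to 0.204 for libraries both odd-numbered or both even-numbered. Srpk2 (ENSMUSG00000062604, chromosome 5 from 23503356 to 23616571) shares 873 of its 7254 100-base windows with Kmt2e, which overlaps it, which was 14.2 ± 0.632 and 15.1 ± 2.57 FPKM (SD, n = 4 each).

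Tra2b and Tra2a promote the inclusion of exons with purine-rich enhancers, and 1 of the pair, Tra2b, was called. Tra2b was 104, 111, 103 and 110 FPKM in iPHet libraries 1 to 4 and 120, 146, 122 and 147 FPKM in iPKO libraries 1 to 4. Every iPKO library was above every iPHet library, and iPKO 2 and 4 were highest. Its mean level rose 1.25-fold, from 107 ± 4.23 to 134 ± 14.9 FPKM (SD, n = 4 each), with a log2 difference of 0.31 (SE 0.086, limma adjusted p = 0.0448, exact permutation p = 0.0286). It was 0.22 for libraries 1 and 3 and 0.40 for libraries 2 and 4, with an interaction of 0.18 (SE 0.037, limma adjusted p = 0.0167). That interaction was not called with quantile normalization (0.11, limma adjusted p = 0.0749) or without iPKO 1 (0.17, adjusted p = 0.0507). The call of Tra2b ended with paired libraries averaged (limma adjusted p = 0.65), with no filter (0.0608), with equal medians (0.0666), with no intensity trend (0.0526) and without any single library except iPKO 1 or iPKO 3 (0.0746 to 0.103). Tra2b (ENSMUSG00000022858) lies on chromosome 16 from 22244549 to 22266005. Of its 100-base windows 12.6% also occur in the processed pseudogenes Gm10254 and Gm14639. The first was 0.979 ± 0.459 and 1.24 ± 0.414 FPKM (SD, n = 4 each) and the second was listed at 0 in every library.

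Tra2a was 84.8, 87.3, 82.3 and 84.0 FPKM in iPHet libraries 1 to 4 and 85.9, 79.5, 83.2 and 73.8 FPKM in iPKO libraries 1 to 4. The ranges overlapped, with iPKO 2 and 4 below all others. The log2 difference of -0.07 had a 95% interval of -0.21 to 0.07 (limma adjusted p = 0.475), and it was 0.02 with quantile normalization. The ratio of Tra2b to Tra2a was 1.23 to 1.31 in iPHet libraries. In iPKO it was 1.39 and 1.46 in libraries 1 and 3 and 1.84 and 1.99 in libraries 2 and 4. These ratios were not tested. For Tra2a (ENSMUSG00000029817, chromosome 6 from 49243921 to 49264052) and for Tra2b the deposited FPKM lay below the authors' own lower bound in 8 of 8 libraries. It was 0.870 to 0.908 times that bound for Tra2a and 0.902 to 0.965 times for Tra2b. Among tested genes 6.61% to 8.99% per library lay below their lower bound, and 13.7% to 19.2% lay above their upper bound. Clk1 lay below its lower bound in 1 library and the other 5 genes in 0.

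**Figure D3:**
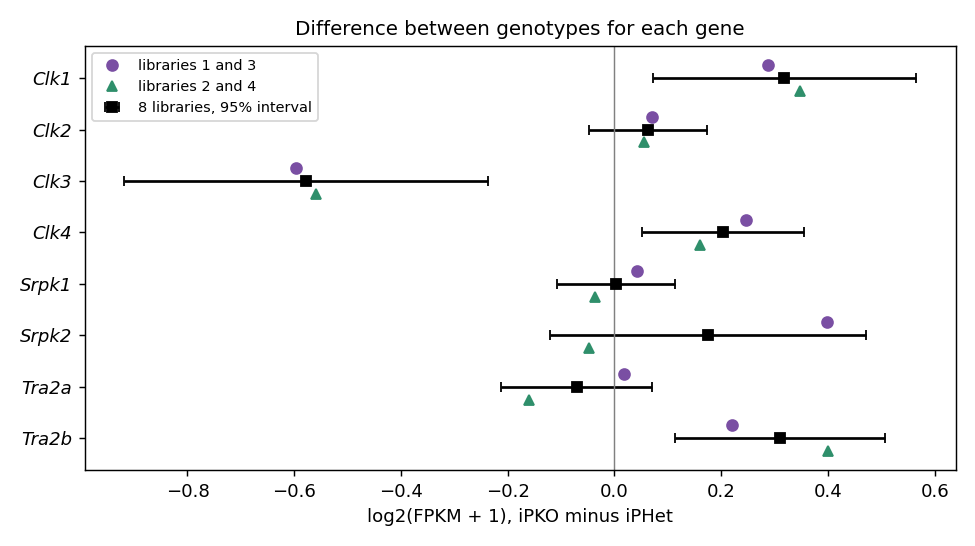
Difference between genotypes for each gene on the log2(FPKM + 1) scale, iPKO minus iPHet. Squares with bars are the value over 8 libraries with its 95% interval, circles the value in libraries 1 and 3, and triangles that in libraries 2 and 4, which have no interval. Clk3 lies at -0.58 and Tra2b at 0.31, and the circle and triangle of Srpk2 are 0.40 and -0.05.

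The genes most like the called members were taken from 8579 other tested genes of at least 5 FPKM, by the root mean square difference of mean-centred log2(FPKM + 1) values over the 8 libraries. For Clk3 they were Nipsnap3b (0.031), with means of 25.5 ± 3.92 and 17.0 ± 2.46 FPKM for iPHet and iPKO, and Insig1 (0.069), a regulator of sterol synthesis, at 108 ± 16.5 and 72.4 ± 8.39 FPKM (SD, n = 4 each). For Tra2b they were Rnf40 (0.029), a ubiquitin ligase of histone H2B, at 39.4 ± 0.959 and 48.8 ± 4.34 FPKM, and Lims1 (0.034), at 13.2 ± 0.803 and 16.5 ± 2.05 FPKM (SD, n = 4 each). Within the set, the nearest profiles were those of Clk2 and Srpk1 (0.046), and Clk1 was nearest to Clk4 (0.11). These distances describe the libraries and carry no test.

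The substrates and partners of these kinases were described by 4 lists. Of 11 SR proteins 2 rose and 2 fell, at a median log2 difference of -0.03. Srsf11 rose from 81.8 ± 2.51 to 100.1 ± 2.59 FPKM and Srsf9 fell from 45.9 ± 4.01 to 33.0 ± 2.71 FPKM (SD, n = 4 each). Srsf7 rose and Srsf6 fell, at log2 differences of 0.30 and -0.24, with groups that did not overlap. The most abundant SR protein gene, Srsf5, was 188 ± 3.34 and 184 ± 10.8 FPKM (SD, n = 4 each) and was not called.

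Of 24 other RS-domain proteins 5 rose and 2 fell, at a median of 0.08. Zranb2, a zinc finger protein that binds donor sites in RNA, fell from 36.0 ± 2.48 to 18.4 ± 0.674 FPKM (SD, n = 4 each), a log2 difference of -0.93 (limma adjusted p = 0.000314). Luc7l is related to a yeast protein of the U1 particle, and its mean of 43.7 ± 5.08 FPKM rose to 68.8 ± 5.91 FPKM (SD, n = 4 each). Rbm39, a splicing coactivator, rose from 231 ± 7.89 to 305 ± 12.5 FPKM, and Prpf38b from 45.1 ± 5.32 to 59.5 ± 2.06 FPKM (SD, n = 4 each).

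Of 11 tested other kinases of splicing factors 1 rose and 2 fell. Prpf4b, a kinase of the spliceosome, rose from 24.3 ± 2.38 to 31.5 ± 3.56 FPKM. Top1, the DNA topoisomerase that can also phosphorylate SR proteins, fell from 38.0 ± 0.616 to 30.6 ± 1.02 FPKM, and Cdk13, a kinase of RNA polymerase II, from 13.3 ± 0.461 to 11.2 ± 0.637 FPKM (SD, n = 4 each). Srpk3, the muscle SRPK kinase, was under the filter at 0.0185 to 0.325 FPKM where it was above 0. Of 11 tested phosphatases, importins and chaperones limma called 0, and 1 had an unadjusted p under 0.05, Ppp2cb, at 113 ± 2.04 and 102 ± 2.77 FPKM (SD, n = 4 each). Tnpo3, the importin of phosphorylated SR proteins, was 89.5 ± 8.82 and 80.2 ± 8.19 FPKM (SD, n = 4 each, limma adjusted p = 0.311). Ppp1ca was listed at 0 in every library, which was not checked against reads, so its absence is not established. The lists' shares of called genes were 36.4%, 29.2%, 27.3% and 0%, against the 15.8% over all tested genes. With genes of a mean of at least 5 FPKM only, 1636 of 8891 were called. The lists were chosen with earlier results of these data known and the shares were not tested, so nothing particular to the lists is read from them.

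**Figure D4:**
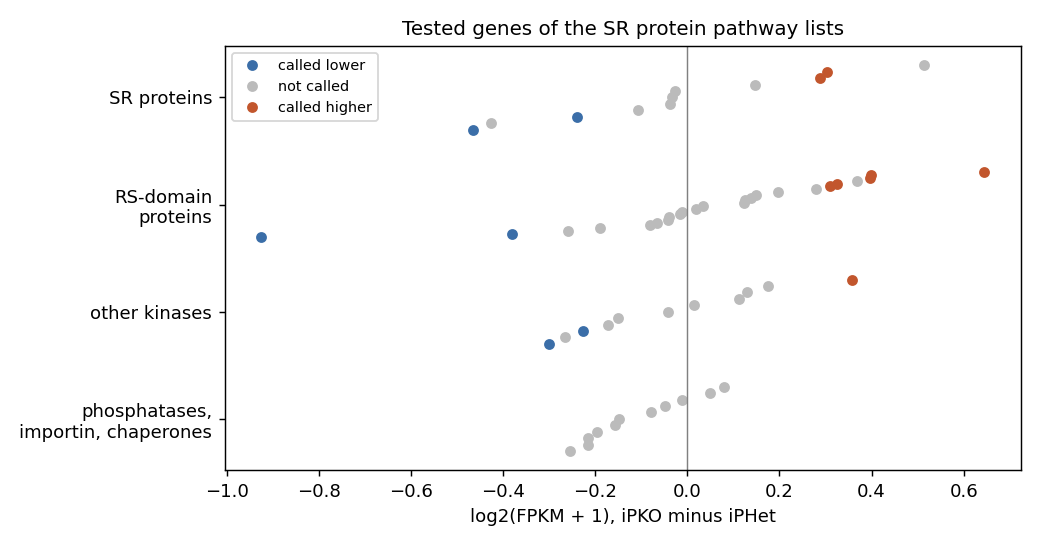
Difference between genotypes on the log2(FPKM + 1) scale, iPKO minus iPHet, for the tested genes of the 4 lists, 1 point per gene and in order of value within a list. Orange points were called higher and blue points lower. Zranb2, at -0.93, is the farthest to the left, and Luc7l, at 0.64, the farthest to the right.

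Of these 11 named called genes, 10 were called in 0 of the 6 fits of paired libraries averaged, and Zranb2 in 1. For Zranb2 that was the fit of averaged log2 values with an odd/even term over protein-coding genes (limma adjusted p = 0.0395), a scale chosen after counts of calls were seen. In the other 5 fits its adjusted p was 0.0574, 0.203, 0.238, 0.363 and 0.395. The calls of Srsf11, Srsf9, Zranb2, Luc7l, Rbm39 and Top1 held without each single library in turn. That of Cdk13 ended without any single library (0.0528 to 0.0957) and that of Prpf4b likewise (0.0537 to 0.107). Leaving out iPHet 1, iPHet 3, iPHet 4, iPKO 2 or iPKO 4 ended the call of Srsf7 (0.05 to 0.0551). For Srsf6 this was so of iPHet 2, iPHet 4, iPKO 3 and iPKO 4 (0.0538 to 0.0573), and for Prpf38b of iPKO 2 and iPKO 4 (0.0503 and 0.0511). Equal medians ended the calls of Srsf6, Cdk13 and Prpf4b (0.0978, 0.112 and 0.0707), and quantile normalization those of Srsf6 and Cdk13 (0.098 and 0.0903). The call of Prpf4b also ended with no filter (0.0655) and with no intensity trend (0.0536).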

How the data were processed

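RNA was measured in 4 iPHet and 4 iPKO libraries made with a TruSeq RNA kit, per the labels' protocols. Per the file headers, the authors deposited FPKM values, each with its own 2 bounds, for every gene of a library. Trimmomatic and mm10 stand in the submitters' processing notes. Aligner, FPKM program, versions and strandedness: not given in the sources used here. Each table held 39013 rows for 38991 identifiers, and rows of 1 identifier were summed.

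The 12462 genes whose mean reached 1 FPKM in one of the genotypes were tested as log2(FPKM + 1), which understates changes of low genes, with limma 3.58.1 and an intensity trend in R 4.3.3, all 8 libraries and no covariate. Adjustment was by Benjamini-Hochberg over all tested genes, and the script was tested on simulated data. There it recovered the size of changes but missed the share of calls first set as a pass mark, more so for smaller changes, and the mark was replaced after that was seen. A gene that is not called is therefore not shown to be unchanged. Permutation tests were exact, over 70 splits. Alternatives were another pseudocount, filter, scaling or trend, the replicate block, an odd/even term, pair averages and leaving out each library. Deviations of same-numbered libraries from their genotype means correlated at 0.104 to 0.204 over tested genes, above the limit of 0.1 taken for pairing. The differently numbered iPHet 2 and iPKO 4 correlated at 0.124, above the values of numbers 1 and 4 (0.104 and 0.107), so these values do not single out equal numbers, and the labels name no pairing. Pair averages were first taken of FPKM. Averages of log2 values, the scale of the main test, were chosen after the counts of calls from the first were seen, and both are given. Pair averages with an odd/even term over all tested genes, and all alternatives for the interaction, were also chosen after seeing the data.

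Genes named were all members, Prmt5, up to 4 called genes of each list by smallest p (or the first gene where none was called) and the 2 nearest profiles of each called member. Srsf5, Tnpo3, Srpk3 and Ppp1ca and the overlapping genes were added after values were seen. The members and lists were chosen with earlier results of these data known. Exon sequences came from the GENCODE release vM21 transcripts.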

Additional observations from a re-analysis of the deposited data

How the results depend on the processing

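The 1973 calls over all genes became 3427 with the replicate block, 4729 with an odd/even term and 1264 to 1416 with 1 library left out (1264 without iPHet 4 and 1309 without iPKO 1, both moved by over 1.5 times). With paired libraries averaged they became 8 for averaged FPKM and 7 for averaged log2 values. With an odd/even term over protein-coding genes the counts were 1 and 198, and over all genes 8 and 6. The scale of averaging thus moved the protein-coding count between 1 and 198, and the log2 scale was chosen after the FPKM counts were seen, so neither count is preferred. The 2 calls among the 8 genes became 4 with quantile normalization, 4 with the replicate block and 4 with the odd/even term, 1 with no intensity trend, 0 with no filter, 0 in each of the 6 fits of pair averages, and 0 to 2 with 1 library left out. Over all tested genes 1882 of 12462 were called with quantile normalization, 1981 of 21952 with no filter and 1957 of 12462 with no intensity trend. At an unadjusted limma p under 0.05 there were 4 members with no filter, 0, 2 and 1 in the fits of averaged FPKM and 1, 2 and 1 in those of averaged log2 values. The 14 calls in the pathway lists became 9 with equal medians, 22 with the block, 28 with the odd/even term, 0, 0 and 0 with averaged FPKM and 0, 1 and 0 with averaged log2 values (4, 11 and 8 at an unadjusted limma p under 0.05 on either scale) and 6 to 11 with 1 library left out. The 2 interaction calls became 1 to 2 with 1 library left out, and 3 with quantile normalization, where Tra2b was lost (limma adjusted p = 0.0749) and Srpk1 (0.0445) and Tra2a (0.0243) were gained. The cause of these shifts was not tested, beyond pair averages leaving 4 values in place of 8. Shares over all tested genes are not given here for the unadjusted p or for the interaction in the alternatives. Nothing particular to the members or lists is therefore read from these counts. The block added the calls of Clk1 and Clk4 and ended none among the 8 genes. The difference of Srpk1 ran from -0.0089 to 0.017 with 1 library left out, and that of Tra2a was 0.019 with quantile normalization. All other members kept their sign in every alternative run. The depth is unknown, so its part in the precision could not be assessed.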
